A study of Homo sapiens with 9 samples.

Results

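Inhibitor of differentiation (ID) genes and 6 genes of the bone morphogenetic protein (BMP) pathway were examined by RNA-seq in U87, GSCs and Diff cells. The 10 genes were ID1, ID2, ID3, ID4, BMP2, BMP4, SMAD6, SMAD7, BAMBI and GREM1, out of 60606 genes in the table, and they were found by symbol. They were gathered around ID1 because ID1 was among the genes most lowered in GSCs, so its values, and those of the other members in GSCs against U87, are given as a description without a test. U87, an established cell line from a human glioblastoma, was used in its wild type form and was grown in DMEM with fetal bovine serum. GSCs are radioresistant glioblastoma stem cells, selected by repeated irradiation of stem cells derived from U87. They were kept in serum-free DMEM/F12 with B27, bFGF and rhEGF. Diff cells are radioresistant glioblastoma cells differentiated in serum from the GSCs, taken from selected clonal colonies and grown again in DMEM with fetal bovine serum. All groups thus descend from 1 line, only GSCs were without serum, and irradiation, selection and medium cannot be told apart in GSCs against U87. Each group had 3 libraries, 9 in all. The labels do not say whether the 3 libraries of a group came from separate cultures, so p-values measure only the spread between these libraries.

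Levels are in TPM, the transcripts of a gene out of 1000000, in which gene length and library total are divided out. The table held log2(TPM + 1), and fold changes are differences on that scale, which understates the change of low genes. A filter on the mean TPM, which had to exceed 1, left 22909 genes for limma, and a gene was called when its Benjamini-Hochberg adjusted p was under 0.05 and its log2 fold change beyond 1 in either direction. TPM keeps no depth, so the counting error behind a value is unknown, and in bulk RNA fewer cells that express a gene and less RNA per cell cannot be told apart. Per library, RN7SL1 took 5.73% to 9.79% of all TPM, mitochondrial genes took 25.9% to 31.8%, and 31832 to 33079 genes were above 0. Of the stem-like markers, PROM1 was at 0.379 to 0.596 TPM in GSCs and 0.121 to 0.238 TPM in U87, and SOX2 at 0.809 to 0.994 TPM against 0 to 0.115 TPM, so both were higher in every GSC library but under 1 TPM. FABP7 was called higher in GSCs than in U87 (log2 fold change 1.77, limma adjusted p = 2.66e-05), and NES was at 21.7 to 23.3 TPM against 31.1 to 35.5 TPM in U87. In Diff cells against U87, FABP7 was also called higher (1.16, limma adjusted p = 0.000483) and NES was called lower (-1.23, adjusted p = 4.02e-06). The astrocytic marker AQP4 was at 0 TPM in all GSC and U87 libraries, and GFAP did not exceed 2.57 TPM in any library. SLC1A3, also astrocytic, was at 6.36 to 11.3 TPM over all libraries. It was higher in Diff cells than in GSCs (limma adjusted p = 0.00834) but under the fold limit. The oligodendroglial marker OLIG2 reached 10.6 TPM and was not called in any comparison. The neuronal markers DCX and RBFOX3 did not exceed 0.164 TPM, while TUBB3 was at 3.14 to 5.82 TPM and was not called. In Diff cells the mesenchymal marker VIM was at 582 to 651 TPM against 1619 to 1655 TPM in U87 (log2 fold change -1.41, limma adjusted p = 1.84e-06), and MAP2, also neuronal, at 20.6 to 22.5 TPM against 6.94 to 9.19 TPM (1.35, adjusted p = 2.01e-05). The names GSCs and Diff are used as the labels of these cell lines.

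BMPs are secreted ligands that bring type I and type II receptor kinases together, and the type I receptor then phosphorylates SMAD1, SMAD5 and SMAD9. These join SMAD4, enter the nucleus and switch on target genes, of which the ID genes are the best known. ID proteins hold a helix-loop-helix domain but no basic region, so they bind E proteins and keep them and their tissue-specific partners from DNA. SMAD6 and SMAD7 are targets that inhibit the receptors in return, BAMBI is a receptor-like protein without a kinase, and GREM1 binds BMP ligands outside the cell. In the nervous system and in glioma, ID proteins are known for holding back differentiation, and BMPs for driving astrocytic differentiation.

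The bases before the start sites of 4 members are shown because they hold letters of a SMAD box, of a palindrome of such boxes or of a TATA box. Sequences are those of RefSeq on GRCh38.p14, and all but the ID3 stretch end at the base before the annotated start site. Capitals mark CAGAC, the letters of a SMAD box, GTCTAGAC, a palindrome made of a pair of GTCT half-sites, or TATAAA, the letters of a TATA box, which occurs on both strands in the TTTATAAA of ID1. The ID1 bases lie at chr20:31605039-31605288 on the plus strand, those of ID4 at chr6:19837120-19837369 on the plus strand, those of SMAD6 at chr15:66701986-66702235 on the plus strand, and those of ID3, upstream of its RefSeq start but within the gene as GENCODE 29 places it, are a stretch of 30 at chr1:23559631-23559660 on the minus strand.
ID1: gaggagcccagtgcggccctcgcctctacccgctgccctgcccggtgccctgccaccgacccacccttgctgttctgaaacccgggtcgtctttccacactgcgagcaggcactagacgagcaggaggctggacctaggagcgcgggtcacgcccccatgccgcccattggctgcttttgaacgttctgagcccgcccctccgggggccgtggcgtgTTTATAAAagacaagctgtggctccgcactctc
ID4: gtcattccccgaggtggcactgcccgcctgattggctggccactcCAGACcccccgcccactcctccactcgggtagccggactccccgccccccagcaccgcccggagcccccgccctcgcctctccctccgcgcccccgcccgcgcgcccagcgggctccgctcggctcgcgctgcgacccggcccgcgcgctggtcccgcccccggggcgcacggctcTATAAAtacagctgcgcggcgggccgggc
SMAD6: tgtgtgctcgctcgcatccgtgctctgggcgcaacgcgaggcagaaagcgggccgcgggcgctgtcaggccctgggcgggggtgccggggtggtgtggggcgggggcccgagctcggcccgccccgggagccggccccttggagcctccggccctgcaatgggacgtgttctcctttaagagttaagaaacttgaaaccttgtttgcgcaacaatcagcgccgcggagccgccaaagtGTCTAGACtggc
ID3: ggtcttcggcgtCAGACcagccggaggaag
Motifs were searched on both strands of 250 bases before each start site, and were chosen after these promoters had been seen. TATAAA lay 31 bases before the start of ID1, 29 bases before that of ID4 and 35 bases before 1 start of SMAD7. It is held by 10.7% of 35116 such windows. GTCTAGAC lay 12 bases before the start of SMAD6 and is held by 64 windows, or 0.182%. CAGAC lay 147 bases before the RefSeq start of ID3, inside an exon of the longer GENCODE 29 model of that gene. The same letters lay 205 bases before the start of ID4, and also before BAMBI and before starts of BMP4, SMAD7 and GREM1. They are held by 38.0% of windows. GGCGCC, a GC-rich palindrome known from BMP-responsive elements, was in none of the windows of the 4 ID genes, in 3 places before BAMBI, in 2 before 1 start of GREM1 and in 1 before 1 start of BMP4, with 16.4% of windows holding it. GGGCGG and CCAAT, also searched, are held by 42.6% and 32.0% of windows, and lay before ID1, ID2, ID4, BAMBI and 1 start of GREM1 alike. A match is a description of letters and not a binding site. Bases farther upstream were not searched, so absence from a window says nothing of elements beyond it. Windows of BMP2 and NOG were not analysed here.

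ID1 was the member with the widest range of levels on the log2 scale. The gene is at chr20:31605283-31606515 on the plus strand (GRCh38, GENCODE 29; coordinates of other members are from the same source). It had 161, 124 and 166 TPM in U87, 1.06, 1.80 and 1.22 TPM in GSCs, and 19.5, 26.6 and 24.6 TPM in Diff cells. The groups did not overlap, with U87 highest, Diff cells between and GSCs lowest. Mean levels were 150.3 ± 22.7 TPM in U87, 1.36 ± 0.392 TPM in GSCs and 23.6 ± 3.66 TPM in Diff cells (SD, n = 3 each). GSCs therefore held 0.904% and Diff cells 15.7% of the U87 mean. On the log2 scale the difference of GSCs from U87 was -6.00, the lowest of the 22909 genes with a mean TPM over 1, followed by UNC5B at -5.91 and CST6 at -5.75. The difference was -2.62 for Diff cells against U87 and 3.38 for Diff cells against GSCs.

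**Figure D1:**
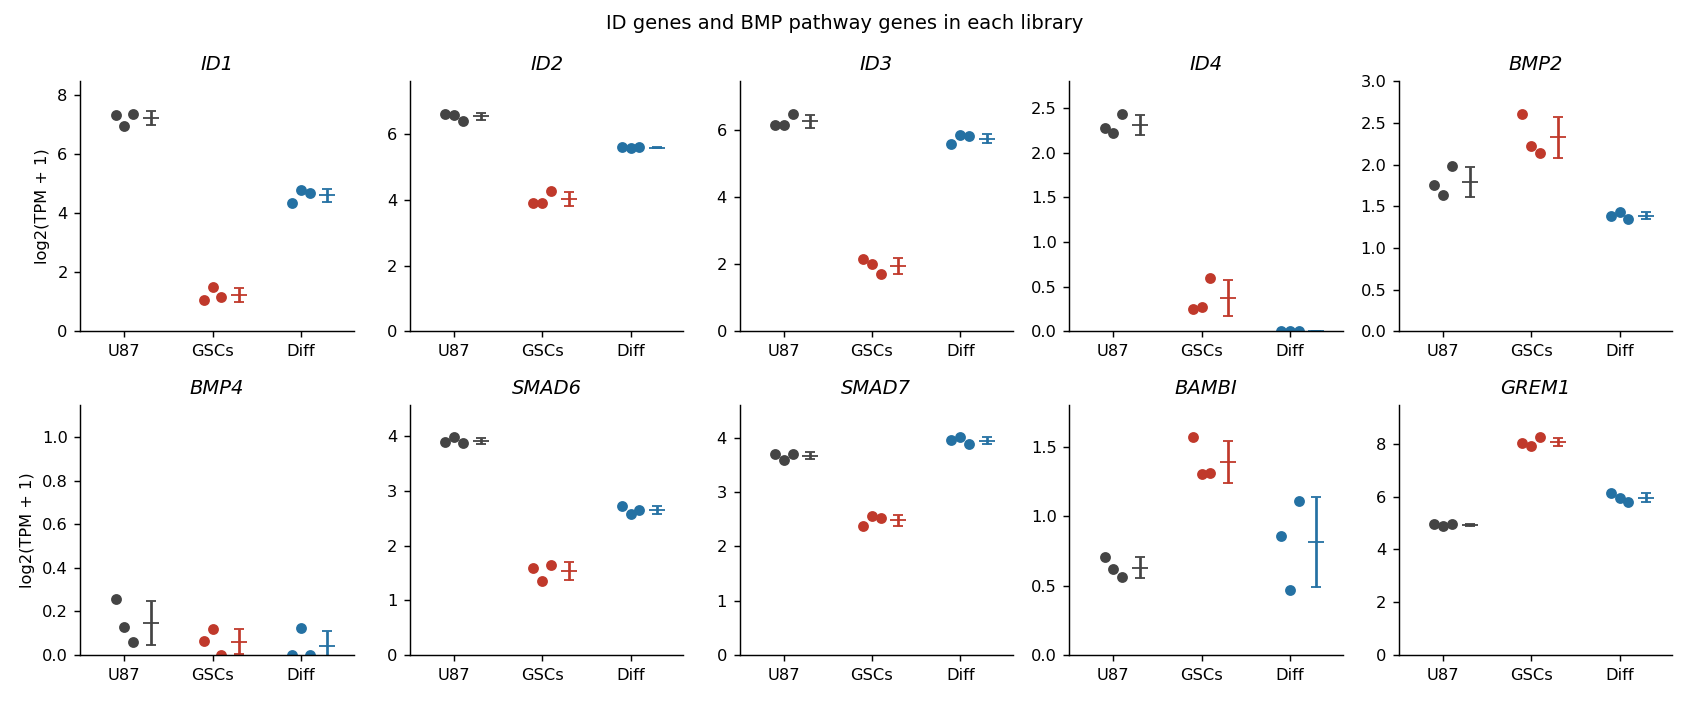
The 10 genes in each of the 9 libraries, as log2(TPM + 1) on the vertical axis of every panel (scales differ between panels), with U87 in grey, GSCs in red and Diff cells in blue; points are libraries and the bars beside them mean ± SD of 3. The ID genes other than ID4 stand in the order U87, Diff, GSCs, GREM1 stands in the reverse order, and ID4 is at 0 in all 3 Diff libraries.

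ID2 and ID3 followed the same order of groups. ID2, at chr2:8678845-8684453 on the plus strand with 1.72% of its exon bases opposite its antisense gene, had 98.3, 96.2 and 84.6 TPM in U87, 14.0, 13.9 and 18.4 TPM in GSCs and 48.0, 46.8 and 47.7 TPM in Diff cells. Its Diff libraries lay close together and between the other groups, at 51.0% of the U87 mean, while GSCs held 16.6%. ID3, at chr1:23557918-23559794 on the minus strand, had 68.8, 69.2 and 87.9 TPM in U87, 3.40, 2.97 and 2.23 TPM in GSCs and 46.8, 55.7 and 54.6 TPM in Diff cells. It came closest to the U87 level of the ID genes, at 69.6% in Diff cells, after 3.80% in GSCs. ID4, at chr6:19837386-19840684 on the plus strand, did not share this order. It had 3.86, 3.65 and 4.41 TPM in U87, 0.187, 0.203 and 0.516 TPM in GSCs, and was listed at 0 in all 3 Diff libraries. ID4 passed the filter on low values through U87 alone, so no test and no fold is given for it in Diff cells.

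The tests that bear on these genes are those with Diff cells, although they share the GSC or the U87 libraries with the contrast that brought ID1 forward. In Diff cells against GSCs, ID2 rose by 1.57 (SE, standard error, 0.105, limma adjusted p = 1.35e-05) and ID3 by 3.80 (SE 0.140, adjusted p = 7.52e-07), higher in 3 of 3 libraries each. Against U87, ID2 stood at -0.95 (SE 0.105, limma adjusted p = 0.000124), past the p threshold but short of the fold limit, which it passed without U87 replicate 3 (-1.02). ID3 stood at -0.51 (SE 0.140, adjusted p = 0.0184), and this p was 0.0669 without Diff replicate 1 and 0.0642 without U87 replicate 3. The levels of ID2 and ID3 in Diff cells were thus between those of GSCs and U87.

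The inhibitory SMADs, SMAD6 and SMAD7, were both lowest in GSCs but parted in Diff cells. SMAD6, at chr15:66702228-66782848 on the plus strand, had 13.8, 14.8 and 13.7 TPM in U87, 2.02, 1.54 and 2.14 TPM in GSCs and 5.63, 4.98 and 5.27 TPM in Diff cells. Like ID1 and ID2, it stood in the order U87, Diff, GSCs with no overlap, and GSCs held 13.5% and Diff cells 37.6% of the U87 mean. SMAD7, at chr18:48919853-48952052 on the minus strand, had 12.0, 11.0 and 12.0 TPM in U87, 4.16, 4.87 and 4.72 TPM in GSCs and 14.5, 15.1 and 13.7 TPM in Diff cells. All 3 Diff libraries of SMAD7 lay above every U87 library, and all 3 GSC libraries below, at means of 123% and 39.2% of U87. SMAD7 is a target of both BMP and TGF-beta signals and blocks both kinds of receptor, whereas SMAD6 acts mainly on the BMP branch. In Diff cells against GSCs, SMAD6 rose by 1.12 (SE 0.111, limma adjusted p = 0.000116) and SMAD7 by 1.47 (SE 0.0857, adjusted p = 6.22e-06). Against U87, SMAD6 fell by 1.26 on the log2 scale in Diff cells (SE 0.111, limma adjusted p = 3.11e-05). The difference of SMAD7 from U87 was 0.28 (SE 0.0857, adjusted p = 0.0292), below the fold limit, and its adjusted p was 0.0505 to 0.101 when any 1 Diff or U87 library was left out.

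The ligands among the members were scarce. BMP2, at chr20:6767664-6780280 on the plus strand, had 2.38, 2.11 and 2.96 TPM in U87, 5.12, 3.69 and 3.43 TPM in GSCs and 1.61, 1.70 and 1.56 TPM in Diff cells. It was highest in GSCs, where the ID genes other than ID4 were lowest, and lowest in Diff cells, with no overlap between groups. Means were 164% of U87 in GSCs and 65.1% in Diff cells. Between Diff cells and GSCs the log2 fold change of BMP2 was -0.94 (SE 0.161, limma adjusted p = 0.00227), just short of the fold limit, which it passed without GSCs replicate 3 (-1.03), with a pseudocount of 0.1 (-1.26) and, at -1.001, when RN7SL1 and mitochondrial genes were removed before rescaling. In Diff cells against U87 it was -0.41 (SE 0.161, adjusted p = 0.0775), a difference not past the threshold. BMP4, at chr14:53949736-53958761 on the minus strand, had 0.195, 0.0931 and 0.0409 TPM in U87, 0.0469, 0.0845 and 0 TPM in GSCs, and 0, 0.0882 and 0 TPM in Diff cells. With a mean of 0.0610 TPM it did not pass the filter, and no group of its libraries stood apart.

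GREM1, the BMP antagonist gremlin, was the most abundant member in GSCs and ran opposite to ID1. The gene is at chr15:32717974-32745107 on the plus strand, and 1.29% of its exon bases lie opposite another gene. It had 29.9, 28.4 and 30.3 TPM in U87, 260, 243 and 303 TPM in GSCs and 69.2, 60.5 and 54.7 TPM in Diff cells. GSCs were thus at 909% and Diff cells at 208% of the U87 mean of 29.6 ± 0.991 TPM (SD, n = 3), again without overlap. In Diff cells GREM1 rose by 1.03 against U87 (SE 0.102, limma adjusted p = 6.69e-05) and fell by 2.11 against GSCs on the log2 scale (SE 0.102, adjusted p = 2.55e-06). Against U87 the fold change was 0.94 without Diff replicate 1 and 0.998 without U87 replicate 2, both under the limit of 1, and the limma adjusted p was at most 0.000505 over all settings. BAMBI, at chr10:28677342-28682939 on the plus strand, had 0.635, 0.539 and 0.474 TPM in U87, 1.97, 1.47 and 1.48 TPM in GSCs and 0.814, 0.383 and 1.16 TPM in Diff cells. It was higher in every GSC library than elsewhere, Diff cells and U87 overlapped, and with a mean of 0.991 TPM it was just below the filter and was not tested. BAMBI lies on the short arm of chromosome 10, where the 20 nearest tested genes had log2 fold changes with a median of -0.64 in GSCs and -1.02 in Diff cells against U87. BAMBI's own difference on that scale was 0.76 in GSCs and 0.18 in Diff cells.

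Counted over the members, 8 of 10 passed the filter and 6 were given a test. In Diff cells against GSCs, 4 of the 6 were called higher and 1 lower, where 8.01% of all 22909 tested genes were called, 2.66% higher and 5.36% lower. Against U87, Diff cells had 1 called higher and 1 lower, where 12.3% of all were called, 5.92% higher and 6.36% lower. The groups did not overlap for 9 of the 10 members in Diff cells against GSCs (5 higher, 4 lower; 46.7% of all genes tested) and for 8 in Diff cells against U87 (2 higher, 6 lower; 55.2% of all). In GSCs against U87, the contrast that chose ID1, 3 members stood higher, 6 lower and 1 overlapped, beside 55.8% of all genes without overlap. These overlap counts include ID1, which brought the members together, and ID4, which passed the filter through U87 alone. They also include BMP4 and BAMBI, which did not pass it. The shares beside them are of tested genes only, so counts and shares are not a like comparison. A share of 17.1% of all tested genes was called there, 9.52% higher and 7.53% lower.

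Across the 9 libraries, log2 values of ID1 went with those of ID2 at a Pearson r of 0.986, SMAD6 at 0.982, ID3 at 0.939 and SMAD7 at 0.805. GREM1 ran the other way at -0.989, BAMBI at -0.872 and BMP2 at -0.582. These are descriptions of 9 libraries in 3 groups and carry no p, since any gene that separates the groups in the same order gives a high value. Of 625 genes with a mean TPM over 5 and a log2 range of at least 3, the values most like those of ID1 were those of COL1A1 (r = 0.9979), HLA-DRB1 (0.9968), HLA-DQB1 (0.9964), NMNAT2 (0.9958) and HLA-DRB5 (0.9947). COL1A1, a chain of type I collagen, had mean levels of 497 TPM in U87, 27.7 TPM in GSCs and 157 TPM in Diff cells. NMNAT2, an enzyme of NAD synthesis, had 65.2, 6.09 and 23.5 TPM. The HLA class II genes share reads with near-identical copies, so their values are uncertain.

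The wider pathway was read from 69 other genes, in 5 lists, of which 43 passed the filter. The lists were written from general knowledge with earlier results of these data known, so their shares called are descriptions. Against U87, 4 of the 43 were called higher and 9 lower in Diff cells (30.2%, beside 12.3% of all genes), 6 higher and 9 lower in GSCs (34.9%, beside 17.1%), and Diff cells against GSCs gave 3 higher and 4 lower (16.3%, beside 8.01%). Their median log2 fold changes were -0.02, 0.05 and -0.12, against -0.04, 0.02 and -0.06 over all tested genes. Of the 43, NOG, CHRDL1, ATOH8 and GATA2 would not have passed the filter without the libraries of 1 group, so a difference of that group was built into their passing. Of the calls just counted, 3, 2 and 1 are theirs, in the same order of comparisons, and they are given below without a test.

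**Figure D2:**
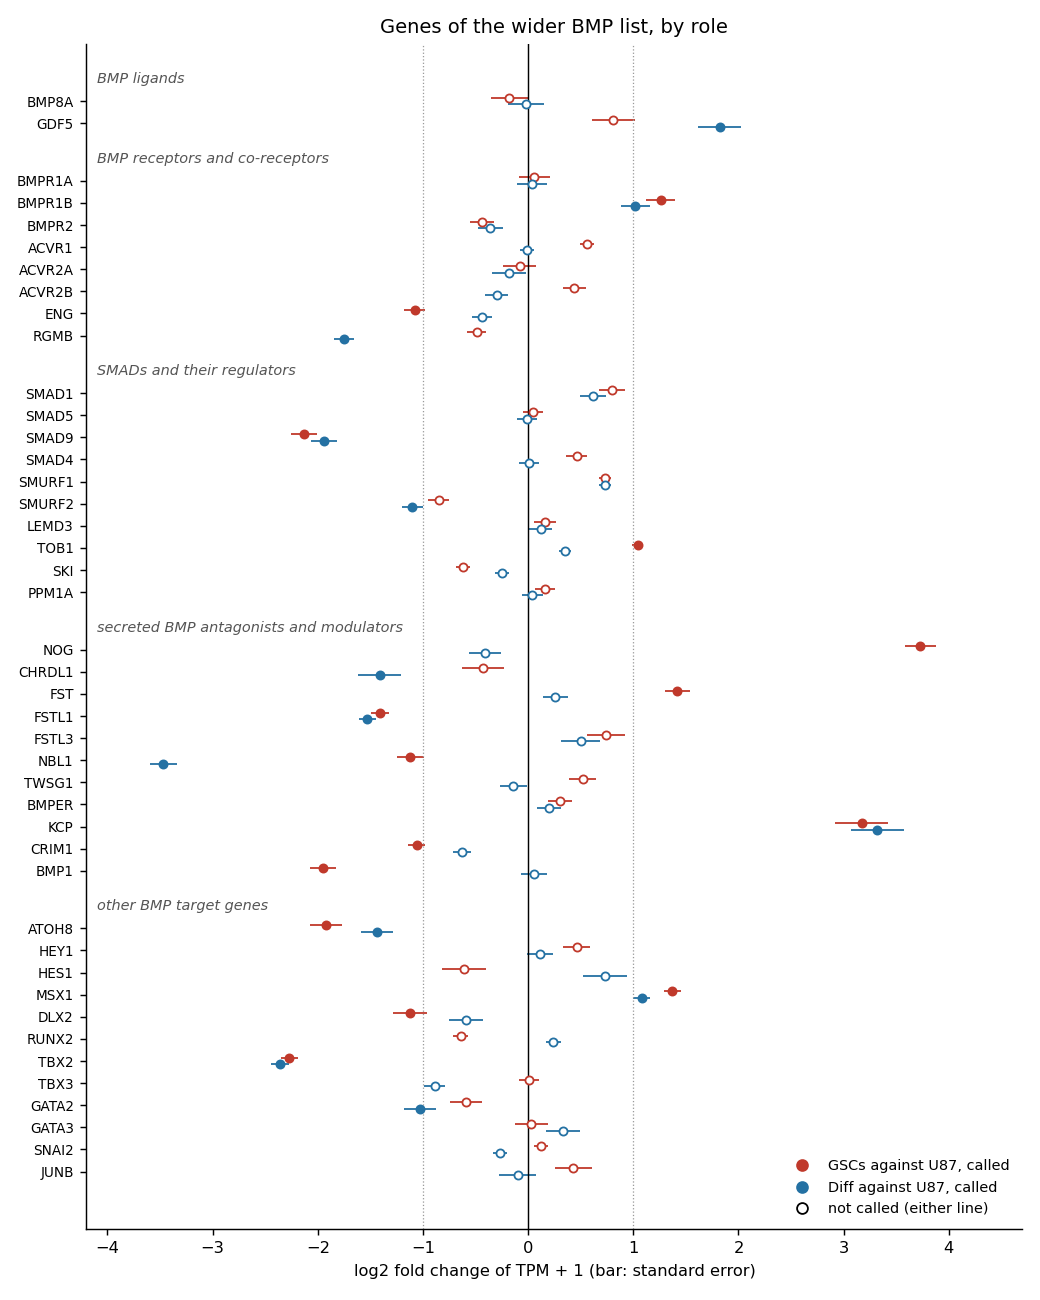
Log2 fold changes of TPM + 1 against U87 for the 43 tested genes of the wider BMP lists, grouped by role, with bars for the standard error; red is GSCs, blue Diff cells, filled points are called, open points are not, and dotted lines mark the fold limit of 1. NOG and KCP lie farthest to the right and NBL1, TBX2 and SMAD9 farthest to the left. Filled points of NOG, CHRDL1, ATOH8 and GATA2 are not to be read as tests, since these genes would not have passed the filter without the libraries of 1 group.

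Of 12 further BMP ligands, 2 passed the filter, and 4 were at 0 TPM in all U87 and GSC libraries, with 5 at 0 in all Diff libraries. GDF5, a ligand of the BMP family known from joints and cartilage, had 2.52, 2.85 and 3.03 TPM in U87, 5.19, 7.75 and 4.43 TPM in GSCs and 15.8, 11.5 and 10.5 TPM in Diff cells. It was called higher in Diff cells against U87 (1.82, SE 0.202, limma adjusted p = 0.000131) and against GSCs (1.01, SE 0.202, adjusted p = 0.00497). Against GSCs it was under the fold limit without Diff replicate 1 (0.85), GSCs replicate 1 (0.96) or GSCs replicate 3 (0.87). The summed TPM of the 12 ligands was 7.77 to 8.03 in U87, 7.94 to 11.4 in GSCs and 14.0 to 19.9 in Diff cells. BMP8A, the other tested ligand, was not called in any comparison.

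Among 11 receptors and co-receptors, 8 were tested, and in each line 6 of them were not called against U87. The share called was 25.0%, beside 17.1% of all genes in GSCs and 12.3% in Diff cells. BMPR1B, a type I receptor to which GDF5 binds, had 3.75, 3.82 and 4.11 TPM in U87, 10.3, 9.25 and 12.9 TPM in GSCs and 10.5, 8.45 and 8.05 TPM in Diff cells. It was called higher in GSCs (1.26, SE 0.138, limma adjusted p = 8.99e-05) and in Diff cells (1.02, SE 0.138, adjusted p = 0.000419) against U87, the latter at 0.92 without Diff replicate 1. ENG, the co-receptor endoglin, fell by 1.08 on the log2 scale in GSCs (limma adjusted p = 2.70e-05), and RGMB, a membrane-anchored BMP co-receptor, fell by 1.75 in Diff cells (adjusted p = 1.56e-06). The widely used receptors BMPR1A, BMPR2 and ACVR1 differed from U87 by at most 0.56 on the log2 scale in both lines.

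Of the 11 SMADs and regulators, 10 were tested. SMAD9, one of the SMADs that carry the BMP signal, had 7.78, 8.20 and 8.88 TPM in U87, 1.29, 1.01 and 1.08 TPM in GSCs and 1.27, 1.45 and 1.56 TPM in Diff cells. Its GSC and Diff libraries overlapped and all lay far below U87, with log2 fold changes against U87 of -2.13 in GSCs (SE 0.122, limma adjusted p = 1.76e-06) and -1.94 in Diff cells (adjusted p = 4.58e-06). Of the other SMADs of that kind, SMAD5 was at 32.5 to 43.2 TPM and SMAD1 at 4.19 to 10.1 TPM over all libraries, and neither was called. SMAD1 was below SMAD9 in U87, at 4.19 to 4.82 TPM, and above it in GSCs and Diff cells. Against U87 it rose by 0.80 in GSCs (limma adjusted p = 0.000736) and by 0.62 in Diff cells (adjusted p = 0.00403), under the fold limit. TOB1, a corepressor of BMP SMADs, rose by 1.04 in GSCs (limma adjusted p = 1.03e-06), and SMURF2, a ubiquitin ligase that removes SMADs and receptors, fell by 1.10 in Diff cells (adjusted p = 3.75e-05). No gene of this list was called by limma in Diff cells against GSCs, where 3 had an adjusted p and 4 an unadjusted p under 0.05.

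Among the 43 genes, the largest log2 fold changes of GSCs against U87 were those of NOG and KCP, both in the list of secreted antagonists and modulators. Of 19 genes, 11 were tested, and 3 were called higher and 4 lower in GSCs against U87 (63.6%, beside 17.1% of all genes). For Diff cells the counts were 1 and 3 against U87 (36.4%, beside 12.3%) and 1 and 3 against GSCs (36.4%, beside 8.01%). NOG is counted in both comparisons with GSCs and CHRDL1 in Diff cells against U87, although neither would have passed the filter without the libraries of 1 group. The shares called in this list were thus partly set by the filter, and are not read against those of all genes. NOG, the antagonist noggin, at chr17:56593699-56595590 on the plus strand, had 0.868, 0.603 and 0.529 TPM in U87, 21.6, 19.1 and 22.7 TPM in GSCs and 0.182, 0.143 and 0.432 TPM in Diff cells. Its level in GSCs was 31.7 times that in U87 and 83.6 times that in Diff cells. On the log2 scale GSCs stood at 3.73 relative to U87 and Diff cells at -4.15 relative to GSCs, given without a test since NOG passed the filter through GSCs alone. FST, or follistatin, which binds activins and some BMPs, had the same shape at 8.44, 6.50 and 7.09 TPM in U87, 20.8, 19.0 and 24.2 TPM in GSCs and 9.28, 8.44 and 9.12 TPM in Diff cells. It rose by 1.42 in GSCs against U87 (limma adjusted p = 1.46e-05) and fell by 1.16 on the log2 scale in Diff cells against GSCs (adjusted p = 0.000130).

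Other modulators had other orders of the groups. KCP, which enhances BMP binding to receptors, had 3.06, 4.81 and 1.63 TPM in U87, 35.8, 40.9 and 28.4 TPM in GSCs and 38.2, 37.7 and 39.7 TPM in Diff cells, and rose by 3.17 in GSCs (limma adjusted p = 1.27e-05) and by 3.32 in Diff cells (adjusted p = 1.42e-05). NBL1, an antagonist of the same family as GREM1, had 12.0, 9.83 and 11.5 TPM in U87, 4.17, 5.04 and 4.49 TPM in GSCs and 0.101, 0.158 and 0 TPM in Diff cells. It was lower step by step from U87 to GSCs to Diff cells, in contrast to GREM1, and was called lower in all 3 comparisons (log2 fold changes of -1.12 for GSCs and -3.47 for Diff cells against U87, and -2.36 between them). FSTL1, a secreted glycoprotein related to follistatin, had 59.7, 53.4 and 64.5 TPM in U87 and 19.1 to 23.5 TPM over the GSC and Diff libraries, a log2 fold change of -1.41 in GSCs (limma adjusted p = 1.97e-06) and -1.53 in Diff cells (adjusted p = 1.93e-06). BMP1, a protease that cleaves the antagonist chordin and is no BMP ligand in spite of its name, had 30.9, 30.9 and 32.5 TPM in U87, 7.99, 8.70 and 5.79 TPM in GSCs and 34.6, 33.1 and 30.8 TPM in Diff cells. It fell by 1.95 on the log2 scale in GSCs against U87 (limma adjusted p = 3.17e-06) and rose by 2.01 in Diff cells against GSCs (adjusted p = 8.81e-06). Of the remaining genes, CRIM1 fell in GSCs against U87 by 1.06 on the log2 scale (limma adjusted p = 1.07e-05), and CHRDL1 stood at -1.41 in Diff cells against U87.

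**Figure D3:**
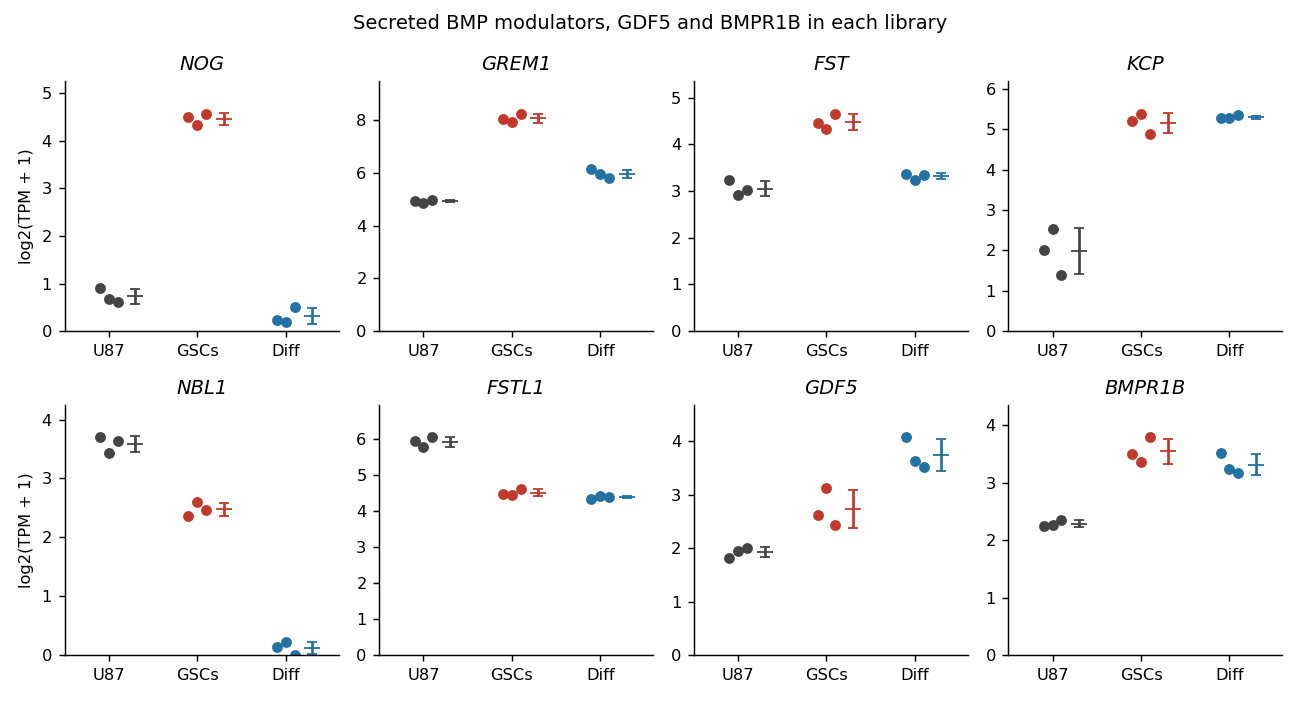
Log2(TPM + 1) of GREM1, of 5 further secreted BMP modulators, of the ligand GDF5 and of the receptor BMPR1B in each library, coloured by cell line, with mean ± SD of 3 libraries beside the points. NOG, GREM1 and FST are highest in the GSC libraries, KCP is high in GSCs and Diff cells alike, and NBL1 is near 0 in Diff cells.

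Other BMP target genes were called in both directions. Of 16, 12 were tested, and 1 was called higher and 3 lower against U87 in each line. That is 33.3%, beside 17.1% of all genes in GSCs and 12.3% in Diff cells. The lower calls include ATOH8 in both lines and GATA2 in Diff cells, which passed the filter through U87 alone and are given without a test. Part of the 33.3% was thus set by the filter, and it is not read against the share of all genes. In Diff cells against GSCs 8.33% were called, beside 8.01% of all genes. ATOH8, a target of BMP signals in endothelial and liver cells, had 2.53, 3.01 and 2.93 TPM in U87, 0.0156, 0 and 0.0179 TPM in GSCs and 0.562, 0.426 and 0.252 TPM in Diff cells. Its order of groups was that of ID1, at log2 fold changes of -1.92 in GSCs and -1.44 in Diff cells against U87. TBX2, a transcriptional repressor, fell in GSCs (-2.27, limma adjusted p = 1.40e-07) and in Diff cells (-2.36, adjusted p = 1.86e-07), and stayed at 10.2 to 12.8 TPM in both lines against 56.8 to 64.3 TPM in U87. DLX2, a homeobox gene, fell in GSCs by 1.12 on the log2 scale (limma adjusted p = 0.000474), and GATA2, a zinc finger factor, stood at -1.03 in Diff cells against U87. MSX1, a homeobox gene induced by BMPs in many embryonic tissues, was the gene of this list called higher against U87. It rose in GSCs by 1.37 (limma adjusted p = 1.87e-06) and in Diff cells by 1.08 (adjusted p = 1.08e-05). HES1, better known as a target of Notch, was the only one called in Diff cells against GSCs, at 1.35 (limma adjusted p = 0.00130), from 0.485 to 1.21 TPM in GSCs to 3.55 to 4.31 TPM in Diff cells.

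The proteins that IDs bind were followed in a list of 19 E proteins and basic helix-loop-helix partners, of which 9 were tested. The E proteins TCF3 and TCF12, at 57.8 to 88.1 TPM and 39.9 to 54.0 TPM over all libraries, were not called in any comparison, and TCF4 fell by 1.09 on the log2 scale in GSCs against U87 (limma adjusted p = 0.000111). MSC, or musculin, fell by 1.93 in GSCs (limma adjusted p = 5.57e-06) and TWIST1 by 1.21 (adjusted p = 0.000217), and HAND2 rose by 1.26 (adjusted p = 3.39e-05). Between GSCs and Diff cells, MSC rose by 2.04 (limma adjusted p = 1.31e-05), and HAND2 and TWIST2 were lower at -1.17 and -1.13 (adjusted p = 0.000136 and 0.000297), the latter at -0.99 with quantile normalization. Against U87, 1 gene was called in Diff cells, TWIST2 at -1.46 (limma adjusted p = 3.77e-05), or 11.1% of the 9 beside 12.3% of all genes.

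TGF-beta signals share SMAD4 and SMAD7 with BMPs, and 8 of their target genes were followed for comparison. In GSCs against U87, 1 was called higher and 2 lower, and in Diff cells against GSCs 3 were called higher. That is 37.5% in each comparison, beside 17.1% and 8.01% of all genes tested. No gene of the 8 was called in Diff cells against U87, where 6 had an adjusted p and 6 an unadjusted p under 0.05 from limma. TGFBI, a secreted matrix protein named for its induction by TGF-beta, had 806, 763 and 817 TPM in U87, 66.7, 63.0 and 68.3 TPM in GSCs and 568, 539 and 517 TPM in Diff cells. It fell by 3.57 on the log2 scale in GSCs against U87 (SE 0.0547, limma adjusted p = 3.31e-09) and rose by 3.02 in Diff cells against GSCs (adjusted p = 7.38e-08). PMEPA1, an inhibitor of TGF-beta SMADs, followed at -1.64 (limma adjusted p = 6.31e-05) and 1.69 (adjusted p = 0.000130), SKIL, a corepressor, rose by 1.54 in Diff cells against GSCs (adjusted p = 4.10e-05), and TGIF1, another corepressor, rose by 1.31 in GSCs against U87 (adjusted p = 1.07e-06).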

How the data were processed

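RNA-seq of 3 libraries each of U87, GSCs and Diff cells was analysed from 1 table of 60606 genes. The authors deposited log2 values, log2(TPM + 1), and the back-transformed values of every library summed to 1000000. Per the labels, ribosomal RNA was removed and directional libraries were read as pairs, whereas the study's methods describe oligo(dT) enrichment; whether counting used strand is not given in the sources used here. The submitters' processing notes name FastQC 0.11.9, Trimmomatic 0.39, HISAT2 2.2.1, featureCounts 2.0.5, R 4.2.0 and GRCh38, and the annotation is not given in the sources used here. Depth is not kept in TPM, so no intervals or detection limits were computed, and the spread between 3 libraries was the only error.

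Genes with a mean TPM over 1, 22909 in number, entered limma (version 3.58.1, run in R 4.3.3; lmFit, then eBayes with its trend option) on log2(TPM + 1) in 1 fit of the 9 libraries, with cell line as the only term and Benjamini-Hochberg adjustment within each comparison. Calls required an adjusted p under 0.05 and a log2 fold change beyond 1. The procedure was checked on simulated data. Members and gene lists were chosen with earlier results of these data known, and the lists are not published gene sets. Named were all 10 members, up to 4 called genes per list, comparison and direction with the largest change, and the 5 genes most like ID1; a few uncalled genes were named after their values were seen. Positions come from GENCODE 29 and promoter letters from RefSeq (GRCh38.p14). Figures were drawn with matplotlib 3.10.9 and tables made with pandas 2.3.3 and numpy 2.4.6, under Python 3.11.15. Alternatives covered pseudocount, filter, scaling, variance model, libraries in the fit, replicate block, threshold and the omission of each library.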

Additional observations from a re-analysis of the deposited data

Results flagged for a closer look

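Some genes of the lists stood on opposite sides of U87 in the irradiated lines, with every GSC library on one side of all U87 libraries and every Diff library on the other. Since this choice already separates Diff cells from GSCs, their differences are given here as log2 values only. The adjusted p given above for BMP2, SMAD7, HES1 and SKIL comes from the limma fit of all tested genes, and no further test was made. Among the members this held for BMP2, whose value in Diff cells relative to GSCs was -0.94, with 0.53 in GSCs and -0.41 in Diff cells against U87, and for SMAD7, at 1.47, with -1.19 and 0.28 against U87. Of the 43 tested genes of the wider BMP lists it held for 4. Of all tested genes, 55.8% did not overlap U87 in GSCs and 55.2% in Diff cells, but how many met this rule was not counted. The counts here are thus descriptions only. NOG stood at -4.15, with 3.73 and -0.41 against U87. HES1 stood at 1.35, with -0.61 and 0.73 against U87. RUNX2, a transcription factor of bone, stood at 0.89, with -0.64 and 0.24 against U87, and ACVR2B, a type II receptor, at -0.73, with 0.44 and -0.30 against U87. Among the TGF-beta target genes it held for SKIL, at 1.54, with -0.92 in GSCs and 0.62 in Diff cells against U87.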

How the results depend on the processing

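No direction was reversed under the alternatives, which were run for the members and for the called list genes named. Over all tested genes, the counts called were 2812 (Diff cells against U87), 3908 (GSCs against U87) and 1836 (Diff cells against GSCs). With a mean TPM over 5 these counts were 1583, 2254 and 1038, since fewer genes were tested, and with the adjusted p alone 9024, 11129 and 7982. For the wider BMP list the counts of 13, 15 and 7 became 25, 31 and 24 with the adjusted p alone. Leaving out 1 library gave 2755 to 2811, 3797 to 3980 and 1773 to 1907 genes, and 11 to 13, 15 and 6 to 8 list genes. In Diff cells against U87 the majority turned with the scaling, from 1356 higher and 1456 lower to 1470 and 1317 with quantile normalization, 1421 and 1376 with median-ratio scaling and 1594 and 1520 without RN7SL1 and mitochondrial genes.

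Same-numbered libraries did not deviate together (Pearson r of -0.0416 to 0.0489 across genes), so replicate numbers were not taken as pairs. With the replicate block, 2810, 3917 and 1831 genes and 13, 15 and 7 list genes were called, and the adjusted p of SMAD7 in Diff cells against U87 was 0.0651 from limma. Among the values of single members, 409 held, 9 lost the p threshold (ID3 and SMAD7 in Diff cells against U87) and 14 moved by more than the spread between libraries. The latter came with a pseudocount of 0.1 or without RN7SL1 and mitochondrial genes, and were all larger in size, such as -6.71 and -6.26 for ID1 in GSCs against U87. The depth behind levels near 0 TPM, as for BMP4, BAMBI and ID4, is unknown.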
